A study of Mus musculus with 16 samples.

Results

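The Ikaros family of transcription factors was followed across 5 populations of hematopoietic stem cells (HSCs) that differed in MAC-1, the integrin that contains CD11b (Itgam). Its members were chosen by name, as the 5 lines named Ikzf1, Ikzf2, Ikzf3, Ikzf4 and Ikzf5 among the 46078 genes of the count table. All HSCs came from wild-type (WT) B6.SJL mice, were enriched for cKit from crushed bones, and were sorted as lineage-negative cKit+ Sca1+ (LSK) CD48- CD150+ cells. The steady-state (SS) populations came from untreated mice and were MAC-1- (3 samples) or MAC-1 low (3 samples). The regenerating populations were taken 4 weeks after 8000 LSK cells had been transplanted into recipients given a lethal dose of 900 cGy, and were MAC-1- (3 samples), MAC-1 low (4 samples) or MAC-1+ (3 samples). Ages were not given in the labels, no SS MAC-1+ population was analysed here, and the labels do not say whether the samples of a population came from separate mice, so every p-value measures the spread between these samples, which may be in part technical. Time and transplantation changed together between SS and 4 week HSCs and cannot be told apart.

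Ikaros family proteins bind DNA through a cluster of zinc fingers near their start and pair with one another through zinc fingers near their end. Ikaros (Ikzf1), the founding member, is needed for lymphoid development and is already transcribed in HSCs. Helios (Ikzf2) is known from early hematopoietic cells, T lineage cells and regulatory T cells, Aiolos (Ikzf3) from maturing lymphocytes, and Eos (Ikzf4) from regulatory T cells and the nervous system, while Pegasus (Ikzf5) is the most distant relative and is transcribed in many tissues. Ikaros, Helios and Aiolos act in part with NuRD, a complex that remodels nucleosomes and removes acetyl groups from histones. In human cells, Ikaros and Aiolos are among the proteins that cereblon hands to the proteasome in the presence of thalidomide-like drugs.

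The coding bases of the second zinc finger of each protein, counted by order from its start, are shown because this finger belongs to the DNA-binding cluster. They were taken from the transcripts of GENCODE M21 on GRCm38, each lies within 1 coding exon, and capitals mark the codons of the paired cysteines and histidines that hold the zinc ion.
Ikzf1, residue 167 onward, chr11:11754024-11754086, forward strand: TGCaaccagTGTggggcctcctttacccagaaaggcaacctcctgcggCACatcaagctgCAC
Ikzf2, residue 148 onward, chr1:69570581-69570643, reverse strand: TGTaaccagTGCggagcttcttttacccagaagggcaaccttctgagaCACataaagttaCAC
Ikzf3, residue 147 onward, chr11:98488940-98489002, reverse strand: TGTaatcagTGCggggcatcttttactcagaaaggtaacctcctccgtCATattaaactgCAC
Ikzf4, residue 189 onward, chr10:128640229-128640291, reverse strand: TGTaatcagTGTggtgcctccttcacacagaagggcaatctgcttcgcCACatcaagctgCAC
Ikzf5, residue 112 onward, chr7:131392501-131392563, reverse strand: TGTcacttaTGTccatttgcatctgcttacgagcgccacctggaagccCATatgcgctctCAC
Over these 63 bases Ikzf1 was identical to Ikzf2 at 51 positions (81%), to Ikzf3 at 51 (81%) and to Ikzf4 at 53 (84.1%), whereas Ikzf5 matched Ikzf1 at 26 (41.3%). Ikzf5 matched the other 3 members at 41.3% to 47.6% of positions. Fingers were matched by order and not by alignment. Near its start Ikzf5 had fingers at residues 84, 112 and 140, and Ikzf1 at residues 139, 167, 195 and 223. The second finger of Ikzf5 therefore need not correspond to that of the others, which limits the values for Ikzf5. The longest protein in each gene's annotation held 6 such fingers for Ikzf1, Ikzf2 and Ikzf3 and 5 for Ikzf4 and Ikzf5 by the spacing searched.

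Reads were counted on whole genes. On GRCm38, Ikzf1 (ENSMUSG00000018654) spans chr11:11685003-11772926 on the forward strand, and the other members lie on reverse strands, Ikzf2 (ENSMUSG00000025997) at chr1:69531214-69687245, Ikzf3 (ENSMUSG00000018168) at chr11:98464902-98546031, Ikzf4 (ENSMUSG00000002578) at chr10:128630843-128645991 and Ikzf5 (ENSMUSG00000040167) at chr7:131388652-131410521. The library kit does not keep the strand of a transcript. Of the 5721 exon bases of Ikzf5, 4652 are shared with Pstk on the opposite strand, so reads of Ikzf5 and Pstk cannot be told apart there. Whether reads on these bases were counted for either gene is not known. The level of Ikzf5, also per kilobase, is therefore uncertain. Ikzf2 shares 144 exon bases with an antisense gene that held 800 counts against 50086 for Ikzf2.

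Total counts ran from 13781278 to 28580658 per sample, with 14533 to 17576 genes detected and 3.96% to 9.62% of counts on mitochondrial genes. Itgam, which encodes the CD11b part of the sort marker, had 96 to 478 counts in 4 week MAC-1+ samples and 0 to 95 in the others, and 1 of the 3 4 week MAC-1- samples had 47. Of the genes of the gate, Kit (119.6 to 429.9 CPM) and Ly6a, which encodes Sca1, were present in all 16 samples. Slamf1 (CD150) ran from 0.126 to 225 CPM, and Cd48 reached 133 CPM although the cells were sorted as CD48-. Cd48 was 71.7 to 133 CPM in 4 week MAC-1- samples, 60.3 to 107 in MAC-1 low and 0 to 45.4 in MAC-1+ samples. Between MAC-1+ and MAC-1- it was not called (edgeR adjusted p = 0.783). Slamf1 was 68.6 to 74.0 CPM in 4 week MAC-1- samples and 7.98, 0.126 and 129 CPM in MAC-1+ samples. The part of these genes in the results below was not tested. CPM are counts brought to a common library total with edgeR's TMM factors.

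Of the 5 members, 3 were present in every sample, Ikzf4 was patchy and Ikzf3 was near 0. To compare members with one another, CPM were divided by exon length in kilobases. On that scale the mean level over the 16 samples was 19.3 for Ikzf1, 13.6 for Ikzf2, 9.19 for Ikzf5, 0.741 for Ikzf4 and 0.0026 for Ikzf3. The mean of Ikzf1 was above that of Ikzf2 in each population, by margins that varied. Ikzf2 was not second in each, since Ikzf5 had the higher mean of those 2 in 4 week MAC-1- HSCs, at 6.98 ± 3.18 (SD, n = 3). In SS MAC-1- HSCs Ikzf5 was at 11.9 ± 2.41 and Ikzf2 at 12.1 ± 4.13 (SD, n = 3 each). In 4 week MAC-1- HSCs the level per kilobase of Ikzf1 was 18.1 ± 11.1 (SD, n = 3) and that of Ikzf2 was 5.91 ± 1.54 (SD, n = 3). In 4 week MAC-1+ HSCs the same levels were 24.5 ± 11.2 (SD, n = 3) for Ikzf1 and 20.2 ± 2.74 (SD, n = 3) for Ikzf2, which did not differ beyond their spread.

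**Figure D1:**
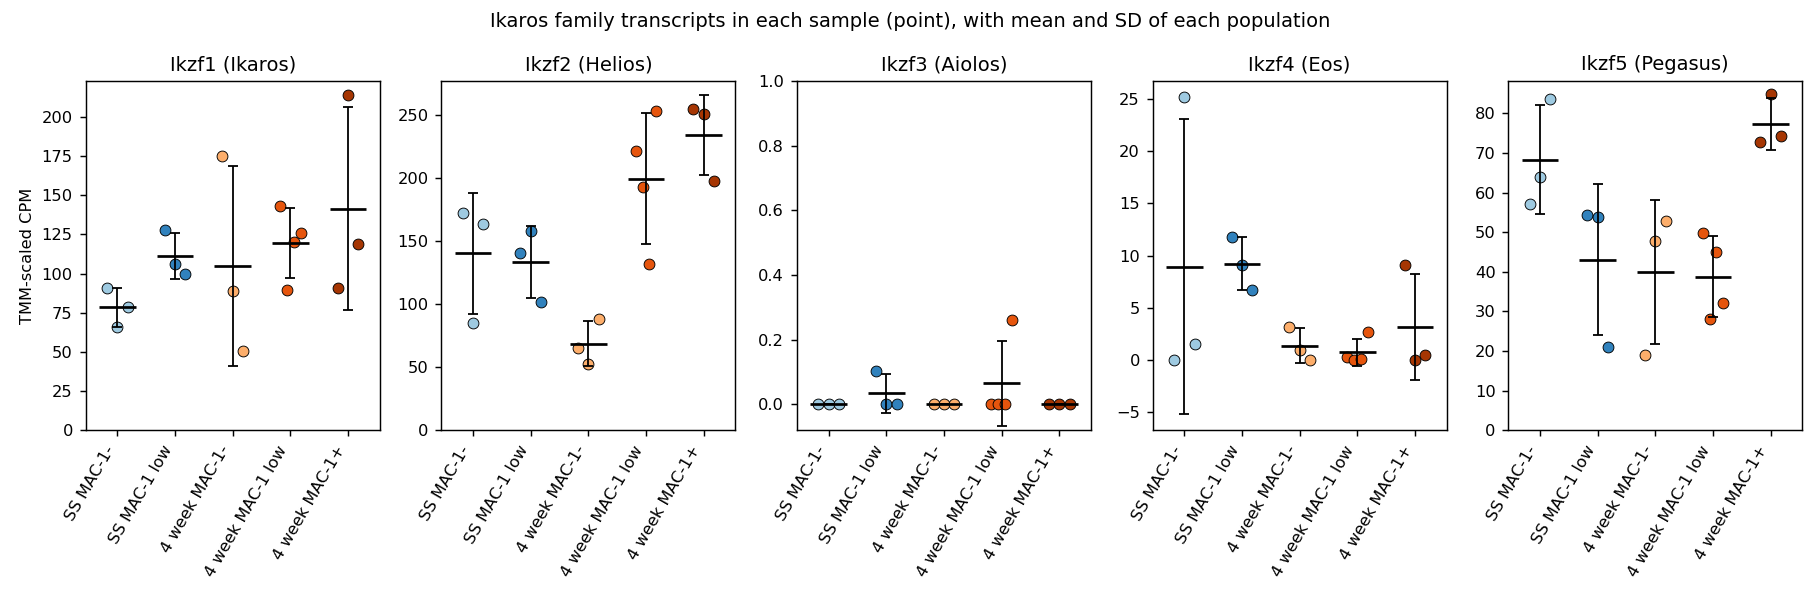
Level of each Ikaros family gene (TMM-scaled CPM, linear axis set for each gene) in the 16 samples, 1 point per sample, with the mean (thick line) and SD (error bar) of each population. The 3 points of Ikzf2 in 4 week MAC-1- HSCs lie between 52.8 and 88.0 CPM, under all 7 points of the other 4 week populations, and Ikzf3 is at 0 in 14 samples.

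Ikzf2, which encodes Helios, was the member that changed with MAC-1 after transplantation. Its level in 4 week MAC-1- HSCs was 65.0, 52.8 and 88.0 CPM. In 4 week MAC-1 low HSCs it was 222, 193, 132 and 253 CPM, and in 4 week MAC-1+ HSCs it was 255, 251 and 198 CPM. Each MAC-1- sample thus stood below each sample of the populations that carried MAC-1, and the MAC-1 low and MAC-1+ samples overlapped. Such a separation of 4 week MAC-1+ from MAC-1- samples, in either direction, was found in 21.7% of the 13661 genes tested below. The share was not counted for other pairs of populations, so their separations only describe these samples. The SS samples held 173, 85.4 and 164 CPM in MAC-1- HSCs and 141, 158 and 102 CPM in MAC-1 low HSCs. These overlapped each other, and all lay below the 4 week MAC-1+ samples. All but SS MAC-1- replicate 2 lay above the 4 week MAC-1- samples. The means ordered the populations as 4 week MAC-1+ (235 ± 31.8 CPM, n = 3), 4 week MAC-1 low (200 ± 51.7, n = 4), SS MAC-1- (141 ± 48.0, n = 3), SS MAC-1 low (134 ± 28.7, n = 3) and 4 week MAC-1- (68.6 ± 17.9, n = 3), each with its SD. Of the neighbours in this order, the last pair did not overlap in range and the others did.

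Differences were tested with edgeR's quasi-likelihood test over the 13661 genes that passed the filter on low counts, and a gene was called at a Benjamini-Hochberg adjusted p below 0.1. Of the 5 members, 4 passed that filter and Ikzf3 did not. Against 4 week MAC-1- HSCs, Ikzf2 rose 3.42-fold in MAC-1+ HSCs (log2 fold change 1.77, SE 0.32, edgeR adjusted p = 0.0105), and it was the 1 member called. In that comparison 3.25% of all genes tested were called, 1.19% as higher and 2.06% as lower. The call held under each of 8 alternative settings and without each of the 16 samples, with adjusted p between 5.56e-06 and 0.0716. In MAC-1 low HSCs Ikzf2 rose 2.91-fold over 4 week MAC-1- (log2 fold change 1.54, SE 0.31, edgeR adjusted p = 0.0728), where 0.278% of all genes were called and again no other member was. This call was less firm. It was lost when the fit used the compared populations alone (edgeR adjusted p = 0.144), and without any 1 of 9 samples, namely SS MAC-1 low replicates 1 and 2, 4 week MAC-1- replicates 1, 2 and 3, 4 week MAC-1 low replicates 1, 2 and 4 and 4 week MAC-1+ replicate 2, with an adjusted p of up to 0.369. Over MAC-1 low HSCs of the same time point, the log2 difference of Ikzf2 in MAC-1+ HSCs was 0.23 (SE 0.29, edgeR adjusted p = 1). There, no gene of any kind was called by edgeR (0% of those tested, with 936 at an unadjusted p under 0.05), while DESeq2 called 318 and limma-voom 5.

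**Figure D2:**
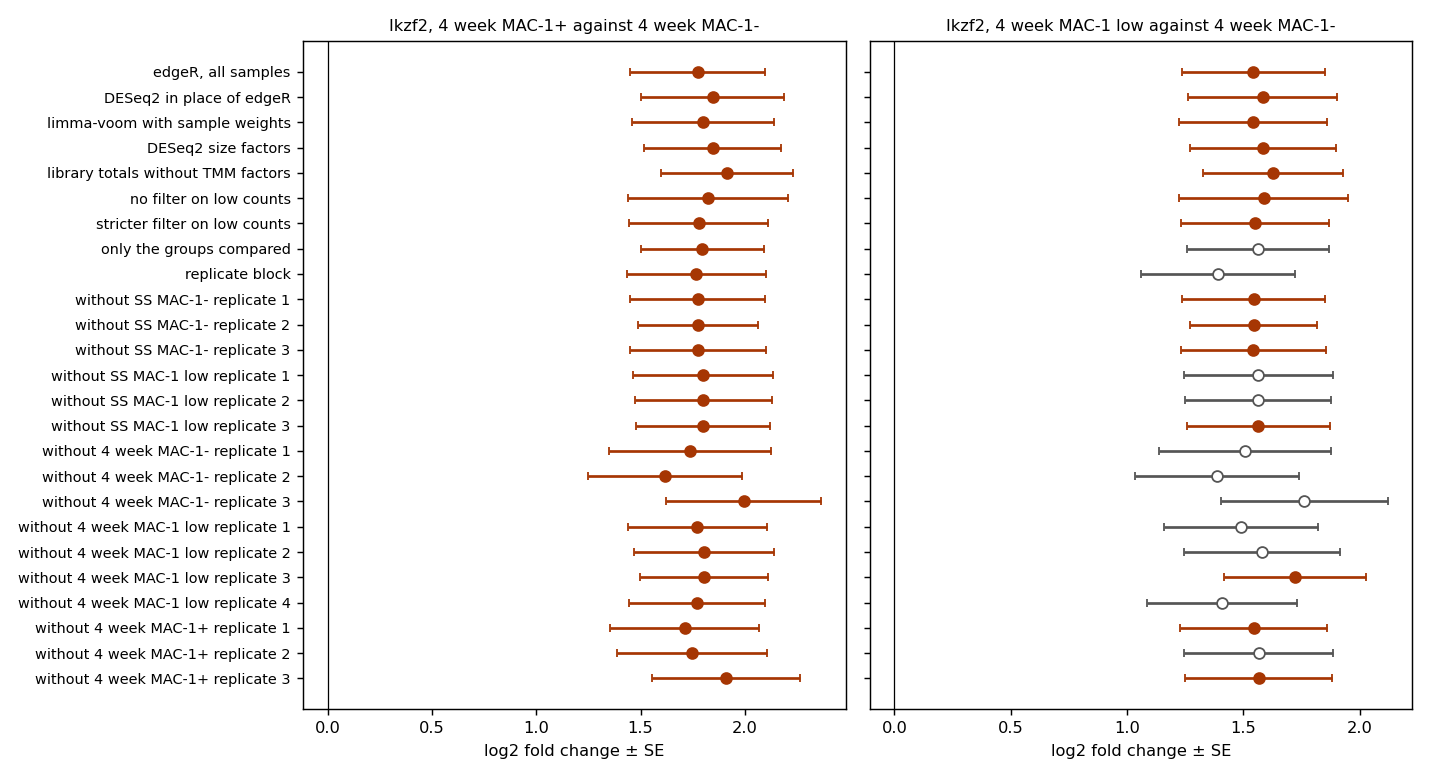
Log2 fold change of Ikzf2 (point, with SE) in 4 week MAC-1+ (left) and 4 week MAC-1 low (right) HSCs over 4 week MAC-1- HSCs, in the edgeR test of all samples, in 8 other settings and without each sample in turn. Filled points have an adjusted p below 0.1, which holds for each point on the left, while 11 of the 24 alternatives on the right are open.

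In SS HSCs no such difference was seen. The log2 difference of Ikzf2 in SS MAC-1 low over MAC-1- HSCs was -0.07 (SE 0.31, edgeR adjusted p = 0.997), with 0.0146% of all genes called and 0 members. The interaction asks whether the MAC-1 low over MAC-1- difference at 4 weeks differed from that in SS, in either direction. For Ikzf2 it was 1.62 on the log2 scale (SE 0.44, unadjusted p = 0.00215, edgeR adjusted p = 0.367). It did not pass in edgeR, where 0.0586% of genes did. Of the 8 alternative settings only DESeq2 called it (adjusted p = 0.0194), and DESeq2 called 594 of 13661 genes there, against 8 by edgeR.

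The 4 week populations were also set against SS HSCs, and Ikzf2 was called in none of these comparisons by edgeR. In 4 week MAC-1- HSCs it was lower than in SS MAC-1- by a log2 difference of -1.03 (SE 0.32, edgeR adjusted p = 0.296), with 0.432% of genes called. DESeq2 called it (adjusted p = 0.0439), along with 882 of 13661 genes in all. Against SS MAC-1 low the value was -0.96 (SE 0.32, edgeR adjusted p = 0.328, DESeq2 adjusted p = 0.0720), with 0.505% of genes called by edgeR and 732 of 13661 by DESeq2. In both comparisons DESeq2 was the only 1 of the 8 alternative settings that called Ikzf2. In 4 week MAC-1+ HSCs all 3 samples lay above all 6 SS samples, with log2 differences of 0.74 (SE 0.32, edgeR adjusted p = 0.317) over SS MAC-1- and 0.81 (SE 0.32, edgeR adjusted p = 0.329) over SS MAC-1 low, where 2.36% and 1.42% of genes were called. The share of all genes with such a separation from SS samples was not counted. For 4 week MAC-1 low HSCs the log2 difference was 0.58 over SS MAC-1 low (SE 0.30, edgeR adjusted p = 0.582) and 0.51 over SS MAC-1- (SE 0.30, edgeR adjusted p = 0.573), with 0.0439% and 0.19% of genes called. At an unadjusted p under 0.05, between 1214 and 1914 genes passed in these 6 comparisons. A test for any difference among the 5 populations called Ikzf2 (edgeR adjusted p = 0.0603) and no other member, beside 2.22% of all genes. That call was lost without any 1 of 7 samples, namely each 4 week MAC-1- and each 4 week MAC-1+ sample and 4 week MAC-1 low replicate 4 (adjusted p of up to 0.191).

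**Figure D3:**
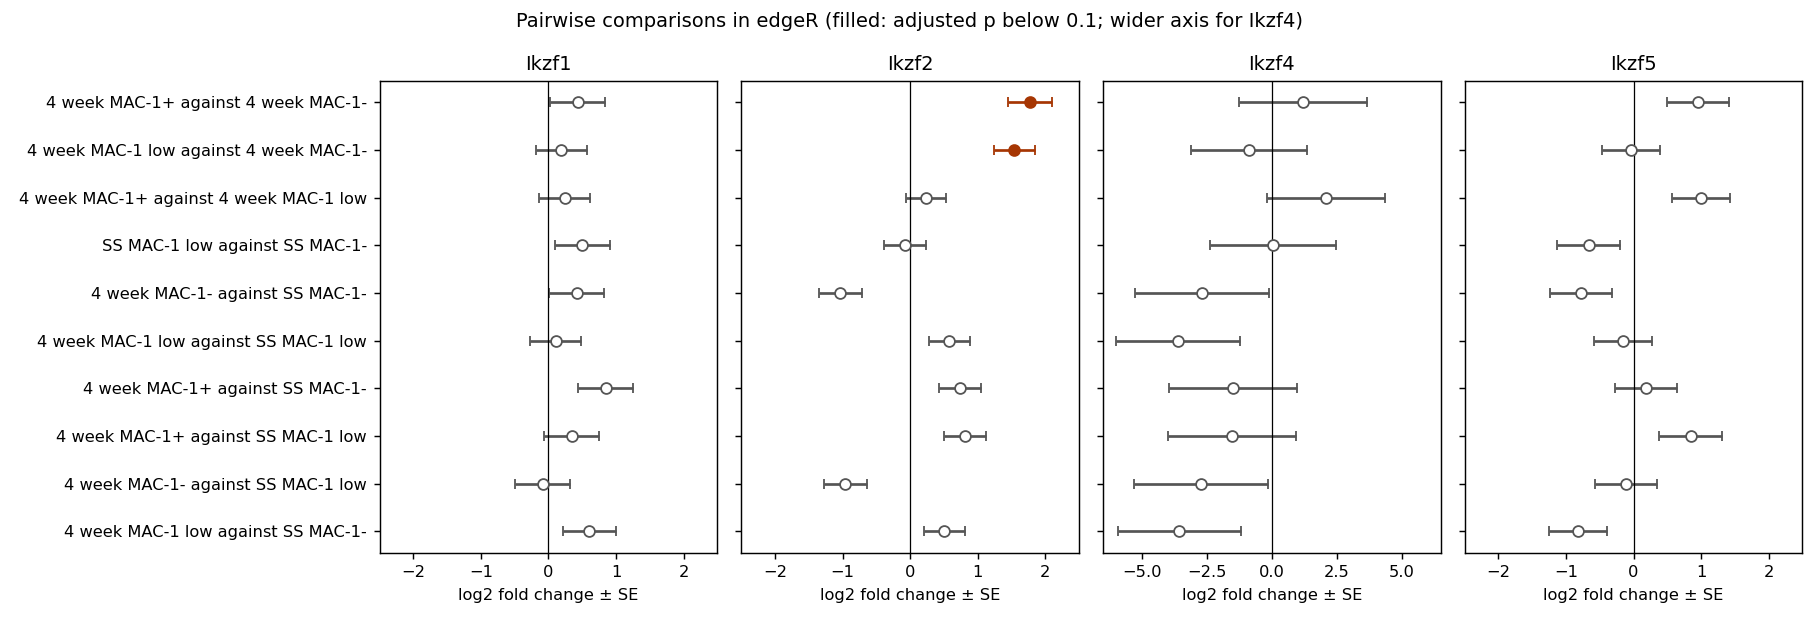
Log2 fold change with SE for the 4 members that passed the filter in the 10 pairwise comparisons of populations, with a wider axis for Ikzf4. The 2 filled points (adjusted p below 0.1 in edgeR) are Ikzf2 in 4 week MAC-1+ and in 4 week MAC-1 low over 4 week MAC-1- HSCs, at 1.77 and 1.54.

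Transcripts of other cell types moved between the same populations. The summed level of 9 megakaryocyte and platelet genes was 4490 to 6830 CPM in 4 week MAC-1- samples, 396 to 922 in 4 week MAC-1 low and 171 to 219 in 4 week MAC-1+ samples, with Pf4 as the main source, and 364 to 1145 CPM in SS samples. All 9 of these genes were detected in 4 week MAC-1- samples. In bulk RNA, fewer cells of a type and less RNA per cell cannot be told apart, and the part of these transcripts in the Ikzf2 difference was not tested. The 10 neutrophil genes summed to 257, 1138 and 7608 CPM in the 4 week MAC-1+ samples, all above the 90.5 to 153 CPM of 4 week MAC-1- samples, and to 197 to 290 CPM in 4 week MAC-1 low samples. The part of these genes in the Ikzf2 difference was not tested. In replicate 3, the highest, S100a8 alone reached 3911 CPM, and without that library the log2 fold change of Ikzf2 in MAC-1+ over MAC-1- HSCs was 1.91 (edgeR adjusted p = 0.0227). The remaining MAC-1+ samples still held 257 and 1138 CPM of neutrophil genes, above all 4 week MAC-1- samples. That fit therefore did not test the part of these genes.

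Because Ikzf2 and its relatives are known from lymphocytes, lymphocyte genes were summed as well. The 11 T cell genes summed to 0 to 9.14 CPM in 4 week MAC-1- samples, 6.58 to 53.1 in 4 week MAC-1 low and 0.0791 to 23.3 in 4 week MAC-1+ samples. Most of this was Lck. Over all 16 samples Cd3e held 3 counts, Trac 20, Cd3d 66 and Trbc2 104. The 8 B cell genes summed to at most 29.5 CPM in any sample. Among the 8 NK cell genes, Nkg7 was present in every sample. It made up most of 323 to 642 CPM in 4 week MAC-1- and 16 to 176 CPM in 4 week MAC-1+ samples. Klrb1c held 1084 counts over 7 samples. Its mean was 0 CPM in 4 week MAC-1-, 8.28 in 4 week MAC-1 low and 0.0209 in 4 week MAC-1+ HSCs. Ncr1, a defining receptor, was at 0 throughout, and the remaining genes of the list held 1 to 10 counts each. The sum of 9 erythroblast genes was 23.3 to 36.9 CPM in 4 week MAC-1- and 83.4 to 178 CPM in 4 week MAC-1+ samples, and that of 9 monocyte and macrophage genes, mostly Lyz2, was 352 to 584 and 459 to 617 CPM. The part of the NK, erythroblast and monocyte lists in the result was not tested.

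Ikzf1, which encodes Ikaros, was present in every sample and was called in no comparison. Its level was 90.9, 66.1 and 78.9 CPM in SS MAC-1- HSCs and 128, 106 and 99.98 CPM in SS MAC-1 low HSCs. At 4 weeks it was 175, 88.9 and 50.5 CPM in MAC-1- HSCs, 143, 89.6, 120 and 126 CPM in MAC-1 low HSCs and 91.0, 214 and 119 CPM in MAC-1+ HSCs. The SS samples were tight and SS MAC-1- lay below SS MAC-1 low without overlap, whereas the 4 week MAC-1- and MAC-1+ samples were spread over a wide range and overlapped. The difference between both SS populations was 0.50 on the log2 scale (SE 0.41, edgeR adjusted p = 0.798). The widest difference of Ikzf1 was that of 4 week MAC-1+ over SS MAC-1-, at 0.85 (SE 0.41, unadjusted p = 0.0566, edgeR adjusted p = 0.369). Each neighbour pair in the order of its means overlapped.

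Since Ikzf1 and Ikzf2 proteins can pair with each other, the count of Ikzf2 relative to Ikzf1 was taken within each sample, which leaves out the scaling between samples. The log2 ratio was -1.43, -0.75 and 0.80 in 4 week MAC-1- HSCs. It was 0.63, 1.11, 0.13 and 1.01 in 4 week MAC-1 low HSCs and 1.49, 0.23 and 0.73 in 4 week MAC-1+ HSCs. In 2 of the 3 MAC-1- samples Ikzf1 had more counts than Ikzf2, and in all 13 other libraries and the remaining MAC-1- sample Ikzf2 had more. The SS means were 0.78 ± 0.36 (SD, n = 3) for MAC-1- and 0.25 ± 0.29 (SD, n = 3) for MAC-1 low HSCs. An exact permutation test of the sum of squares between population means, which takes differences in either direction, over the 4200 assignments of the 4 week samples to their 3 populations gave p = 0.13 (smallest possible 4.76e-04), with a difference of 1.28 between the means of MAC-1+ and MAC-1- HSCs. The result depended on single libraries. Without 4 week MAC-1- replicate 3 the difference was 1.91 and the exact permutation p was 0.0246, the largest difference among the fits without 1 sample. That sample held the highest ratio of its population, so leaving it out can only widen the difference, and the p of 0.13 over all samples stands as the result.

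**Figure D4:**
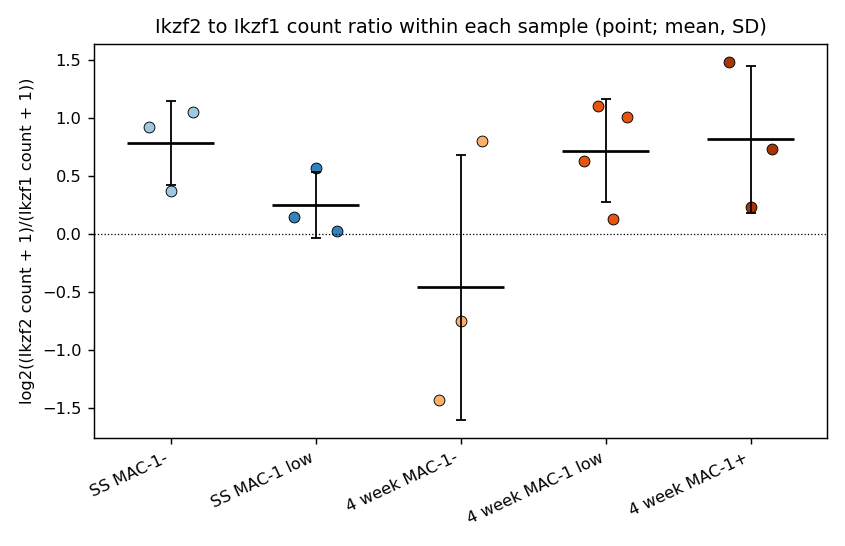
Log2 ratio of Ikzf2 to Ikzf1 counts (1 added to each) in each of the 16 samples, with mean (line) and SD (bar) of each population. The points of 4 week MAC-1- HSCs run from -1.43 to 0.80, with 2 of 3 under 0, and all points of the other populations lie above 0.

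Ikzf5, which encodes Pegasus, had its highest mean in 4 week MAC-1+ HSCs, with ranges that overlapped those of SS MAC-1- HSCs (log2 difference 0.18, SE 0.46, edgeR adjusted p = 0.938). Its level in 4 week MAC-1+ HSCs was 72.9, 84.9 and 74.2 CPM. It was 19.1, 47.9 and 52.8 CPM in 4 week MAC-1- and 49.7, 28.1, 44.9 and 32.2 CPM in 4 week MAC-1 low HSCs. The MAC-1+ samples were above all other 4 week samples, but the differences did not pass the test, at 0.95 over MAC-1- (SE 0.46, unadjusted p = 0.0576, edgeR adjusted p = 0.393) and 1.00 over MAC-1 low (SE 0.43, unadjusted p = 0.0339, edgeR adjusted p = 0.702). Ranges of 4 week MAC-1+ samples clear of those of MAC-1- samples were found in 21.7% of all genes tested, and in 2 of the 4 members, Ikzf2 and Ikzf5. No such share was counted for the other pairs of populations. In SS HSCs, Ikzf5 was 57.2, 64.0 and 83.7 CPM in MAC-1- and 54.3, 53.9 and 21.1 CPM in MAC-1 low samples, which also did not overlap (log2 difference -0.66, SE 0.46, edgeR adjusted p = 0.727). Pstk, which shares exon bases with Ikzf5, was 45.9, 72.6 and 133 CPM in 4 week MAC-1- and 161, 38.5 and 60.3 CPM in 4 week MAC-1+ samples. These ranges overlapped, but Pstk need not reflect the shared reads, since their counting is not known.

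Ikzf4, which encodes Eos, was found in 12 samples and was at 0 in 4, 1 in each population other than SS MAC-1 low. Its level was 11.8, 9.12 and 6.75 CPM in SS MAC-1 low HSCs, the population in which all samples held it above 5 CPM. In SS MAC-1- HSCs it was 0, 25.2 and 1.54 CPM, so that 1 sample carried nearly the whole mean. At 4 weeks it was at most 3.20 CPM in MAC-1- samples and 2.70 CPM in MAC-1 low samples, below each SS MAC-1 low sample, and it was 9.07, 0 and 0.475 CPM in MAC-1+ samples. The difference of 4 week MAC-1 low from SS MAC-1 low was -3.60 on the log2 scale (SE 2.38, edgeR adjusted p = 0.731), and no difference of Ikzf4 was detectable at this spread.

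Ikzf3, which encodes Aiolos, held 9 counts in all, 2 in SS MAC-1 low replicate 1 and 7 in 4 week MAC-1 low replicate 4. The other 14 samples were at 0, and a count of 0 allows up to 3 counts, or 0.105 to 0.218 CPM in these libraries, by counting error only. No comparison of Ikzf3 could be made at this depth.

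The genes most like each member over the 16 samples were found by Pearson correlation of log2 CPM among 8020 genes with a mean of at least 10 CPM. For Ikzf2 these were Stxbp4 (r = 0.90, Spearman rho 0.92), Cd24a (r = 0.88, rho 0.88) and Wfdc17 (r = 0.88, rho 0.83). Cd24a encodes the surface protein CD24, and its mean was 322 CPM in 4 week MAC-1- and 767 CPM in 4 week MAC-1+ HSCs. For Ikzf1 they were Ttyh3 (r = 0.82), Ago2 (r = 0.79) and Naa35 (r = 0.77), of which Ago2 encodes an Argonaute protein that carries small RNAs. For Ikzf5 they were Lpar6 (r = 0.83), Irgm2 (r = 0.79) and Csad (r = 0.79), and for the patchy Ikzf4 they were Gng11 (r = 0.76), Zfp846 (r = 0.75) and Samd12 (r = 0.74). Between members, r ran from -0.20 (Ikzf2 and Ikzf4) to 0.37 (Ikzf2 and Ikzf5). These points share libraries and populations, and the values only describe these samples.

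Partners of the family in the cell, and the cereblon ligase named above, were compared between the MAC-1+ and MAC-1- HSCs of 4 weeks (MAC-1+ over MAC-1-). There the median log2 fold change of all genes tested was 0.07 and 3.25% of them were called. Of the 14 NuRD genes, all were tested and edgeR called 0, with 2 at an unadjusted p under 0.05 and a median of -0.15. These 2 were Rbbp4, a histone chaperone (log2 fold change -1.41, SE 0.51, edgeR adjusted p = 0.230), and Hdac2, a histone deacetylase (-0.76, SE 0.28, edgeR adjusted p = 0.249), and each was called in 1 of the 8 alternative settings. Of the 10 genes for other corepressors of Ikaros and for the cereblon ubiquitin ligase, 1 was called and it was lower, with a median of -0.41 over the list. It was Rbx1, the RING subunit of cullin ligases, which fell by 0.76 on the log2 scale (SE 0.15, edgeR adjusted p = 0.0128), from 1035 ± 77.9 to 611 ± 84.5 CPM (SD, n = 3 each). Its call was lost without a filter on low counts (adjusted p = 0.130) and in a fit of the compared populations alone (adjusted p = 0.126).

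Of 24 genes described with Ikaros in lymphoid precursors, 12 passed the filter, 1 was called lower, none was called higher, and the median was 0.40. The gene called was Cdk6, a kinase that drives entry into the cell cycle, which fell by 2.01 on the log2 scale (SE 0.33, edgeR adjusted p = 0.00563), from 268 ± 34.6 to 66.6 ± 25.1 CPM (SD, n = 3 each), and its call held in all 8 settings and without each sample. Of 23 other transcription factors of lymphoid development, 16 were tested, 4 were called higher and 0 lower (1.19% and 2.06% of all genes tested), with 8 at an unadjusted p under 0.05 and a median of 0.68. Spi1, which encodes PU.1 and also drives myeloid fate, was 3.80 higher on the log2 scale (SE 0.65, edgeR adjusted p = 0.00676), at 3.76 ± 3.35 CPM in MAC-1- and 52.5 ± 5.24 CPM in MAC-1+ HSCs (SD, n = 3 each), and among the 8 settings and 16 fits without a sample it missed the threshold in 1, the fit of the compared populations alone (adjusted p = 0.105). Less firm calls were those of Myb, a regulator of progenitor growth (0.89, SE 0.24, edgeR adjusted p = 0.0816), Tox, known from T cells (3.17, SE 0.87, edgeR adjusted p = 0.0878), and Lyl1, a partner in the HSC transcription factor complex (1.71, SE 0.49, edgeR adjusted p = 0.0969). Of the 8 settings, Myb was called in 6, Tox in 5 and Lyl1 in 4, with an adjusted p of up to 0.223, 0.203 and 0.420. Without single samples Myb and Tox were each called in 6 of 16 fits and Lyl1 in 0 of 16, and the adjusted p rose to at most 0.293, 0.295 and 0.321. The megakaryocyte and neutrophil sums given above moved with these genes too, and their part was not tested.

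**Figure D5:**
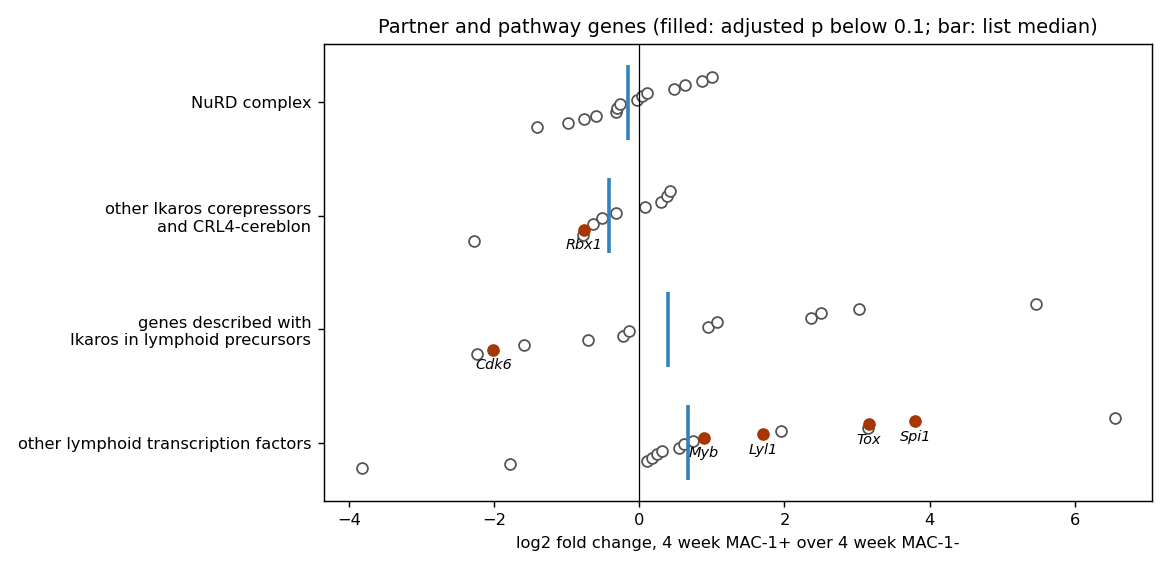
Log2 fold change in 4 week MAC-1+ over 4 week MAC-1- HSCs of each tested gene (point) in 4 lists of partner and pathway genes, with the median of each list as a bar. Filled points (adjusted p below 0.1 in edgeR) are named, 4 of 16 other lymphoid transcription factors at or above 0.89, Rbx1 at -0.76 and Cdk6 at -2.01, and no NuRD gene is filled.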

How the data were processed

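RNA of 16 sorted HSC samples was amplified with SMART-Seq v4 and sequenced from Nextera XT libraries. The authors deposited 1 table of raw counts, the whole number of reads on each gene, made with an nf-core pipeline and STAR. For the counting program, the build and the annotation the entry is "not given in the sources used here", and DESeq2 is named in the labels. The kit adds no molecular identifiers, so intervals and floors cover counting error only. Samples were grouped by their labels and columns matched to them by name. Gene positions, exon lengths and coding sequences came from GENCODE M21, which held 45143 of the 46078 identifiers. Zinc fingers were found as cysteines 2 residues apart, then 12 residues, a histidine, 3 to 5 residues and a histidine or cysteine, in the longest protein.

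Counts were fitted in R 4.3.3 with edgeR 4.0.16 (TMM factors, filterByExpr, robust quasi-likelihood test, Benjamini-Hochberg adjustment), with all samples in 1 model and a mean per population. The common biological coefficient of variation was 1.13. Fitted log2 fold changes and their SE come from this model, and levels are TMM-scaled CPM. The scripts were tested on simulated data. Alternatives were DESeq2 1.42.0, limma-voom 3.58.1 with sample weights, other size factors, no or a stricter filter (mean count 50), the compared populations alone, the replicate number as a block, a threshold of 0.05 and leaving out each sample. Figures were made with matplotlib 3.10.9 (Python 3.11.15).

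The members, gene lists and tests were chosen with earlier results of these data known. Named genes were the members, the 3 genes most like each, and in each list the genes called between MAC-1+ and MAC-1- HSCs of 4 weeks (at most 5), or the 2 with the smallest p where none was called, with Itgam and the gate genes. Genes of other cell types were named after their values were seen.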

Additional observations from a re-analysis of the deposited data

Results flagged for a closer look

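In 4 week MAC-1 low HSCs, replicate 4 stood apart from the other 3 samples for 2 of the 5 members, by Dixon's gap over range above 0.829. Ikzf3 was at 0.262 CPM (7 counts) there and at 0 in the others. Ikzf4 was at 2.70 CPM (72 counts) there and held 0 to 4 counts in the others. Both values are low. The rate of about 5% marked by chance holds for normally distributed values and does not apply to counts mostly at or near 0. With 1 sample above 0, as for Ikzf3, the gap over range is always 1. The populations of 3 samples were not examined in this way.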

How the results depend on the processing

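The call of Ikzf2 in 4 week MAC-1+ over MAC-1- HSCs held in every alternative listed. For 4 week MAC-1 low over MAC-1- HSCs, the count of members called went from 1 to 0 with the compared populations alone, with the replicate block (adjusted p = 0.342 for Ikzf2) and at a threshold of 0.05, and ranged from 0 to 1 when single samples were left out. For any difference among populations it went from 1 to 0 with the replicate block and at 0.05, and again ranged from 0 to 1 without single samples (0 without any 4 week MAC-1- or MAC-1+ sample and without 4 week MAC-1 low replicate 4). With DESeq2 the count rose from 0 to 1, in each case Ikzf2, for 4 week MAC-1- HSCs against either SS population and for the interaction. The difference in the Ikzf2 to Ikzf1 ratio ranged from 0.791 to 1.91 without single samples. The causes were not tested. Over all genes, 444 were called in 4 week MAC-1+ against MAC-1- HSCs by edgeR (162 higher), 1321 by DESeq2 (681 higher) and 891 by limma-voom (409 higher). Of 1396 recomputed values of single genes, 72 lost a call, 5 gained one and 0 called values changed sign. Samples with the same replicate number did not deviate together (r from -0.025 to 0.040 over 30 pairs, 6 of 16 samples closest to their own number). The replicate numbers therefore do not pair them, and the block also leaves 4 week MAC-1 low replicate 4 without weight. The running numbers in the column names would group the 4 week samples in another way. A pairing by those was not tested, so samples sorted together may still be paired. The gene-wise coefficient of variation was 0.385 for Ikzf1, 0.312 for Ikzf2, 0.443 for Ikzf5 and 1.91 for Ikzf4, and with 3 or 4 samples per population it limits what could be detected.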
